A study of Homo sapiens with 2 samples.

Results

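Cells with no counted transcript of a set of proliferation genes were picked out among SH-SY5Y neuroblastoma cells of 2 flasks. They were described against the other cells of the same flask. A member was a cell with 0 unique molecular identifiers (UMIs, counts of captured mRNA molecules) of 9 cell cycle genes, TOP2A, MKI67, CDK1, CENPF, UBE2C, TYMS, RRM2, PCLAF and TK1, and with fewer than 20 UMIs of the neuropeptide galanin (GAL) per 10000. Members were sought among cells that could be assigned to a flask, had at least 5000 UMIs and had under 15% of their UMIs from the 13 protein genes of the mitochondrial genome. These limits kept 1494 of the 2879 cells, and 181 of the 1494 were members (12.1%, exact binomial 95% interval 10.5 to 13.9%). SplitA held 77 members among 633 kept cells (12.2%, 9.72 to 14.97%) and SplitB held 104 among 861 (12.1%, 9.98 to 14.4%), so the shares of the flasks were within counting error of each other.

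SH-SY5Y is a subclone of a line established from a neuroblastoma metastasis, and it grows as neuroblast-like cells of the sympathetic lineage. Untreated, unsynchronized cells of a single culture were divided into 2 flasks, grown until nearly confluent, harvested, and labelled with a different hashtag antibody for each flask before they were pooled into 1 droplet library. SplitA carried Hashtag-1 (A0251) and SplitB carried Hashtag-2 (A0252). No group was treated and no other genotype was present, so each flask served as a replicate culture of the same line, and both passed through the same library and sequencing run.

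The oligonucleotide barcodes below are shown because reading them is what placed each cell in a flask.
Hashtag-1 (SplitA): gtcaactctttagcg
Hashtag-2 (SplitB): tgatggcctattggg
A cell was assigned where the count of a hashtag was at least 3 times that of the other and the other did not pass 185, which gave 1179 cells to SplitA and 1605 to SplitB and left 95 multiplets aside.

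A dividing cell switches on gene programmes in order: E2F factors release the genes of DNA synthesis, and later the MuvB complex with MYBL2 and FOXM1 drives the genes of mitosis. In a resting cell, or early in the first gap phase, the DREAM complex and RB proteins hold many of these promoters silent, and the mRNAs that remain decay. Neuroblasts can leave the cycle as they mature toward neurons, but a tumor line in serum keeps most of its cells in division, and a snapshot of mRNA cannot tell a resting cell from one that has just divided.

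The genes that defined the members show how far the gate lay from the other cells, and they are given as description because they chose the members. In the other kept cells (556 in SplitA, 757 in SplitB) the median cell carried 8 UMIs of the 9 genes in each flask. The topoisomerase TOP2A stood there at 156 and 149 CPM (UMIs of the gene per 1000000 UMIs of the summed cells) in SplitA and SplitB and was found in 47.7% and 48.0% of the cells. The PCNA-associated factor PCLAF reached 246 and 230 CPM and the kinetochore protein CENPF 256 and 221 CPM. CDK1, the kinase of mitosis, was lowest of the 9 at 43.4 and 42.3 CPM. Over all members of a flask, 3 UMIs would amount to 5.45 CPM in SplitA and 4.06 CPM in SplitB, the limit taken here for a count of 0, and the upper end of the exact two-sided 95% Poisson interval of a count of 0 was 6.70 and 4.99 CPM. GAL stood at 456 and 582 CPM in members against 1425 and 1520 CPM in other cells. The limit on GAL set aside 27 cells of SplitA and 28 of SplitB that also lacked the 9 genes, and few cells lay near it: 1 member of SplitA and 6 of SplitB had 15 to 20 GAL UMIs per 10000, and 1 and 3 further cells without the 9 genes had 20 to 25. At the other edge, 65 cells of SplitA and 92 of SplitB carried exactly 1 UMI of the 9 genes with GAL under 20 per 10000, so a difference of 1 molecule separated many cells from membership.

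Depth moved with membership. Members had a median of 6576 UMIs in SplitA and 6876.5 in SplitB, against 7036.5 and 7264 in other cells. The share of members was 14.7% in SplitA and 17.3% in SplitB among cells of 5000 to 6000 UMIs, 12.8% and 12.04% from 6000 to 8000, 6.61% and 11.2% from 8000 to 10000, and 12.99% and 5.04% at 10000 or more. When every kept cell was thinned to 5000 UMIs before the rule was applied, the share over both flasks was 15.7%. The part that capture played in membership was not tested beyond these values. Members also showed fewer genes, with medians of 1819 and 1829 genes with a UMI against 2047 and 2088 in other cells, and after thinning of every cell to 5000 UMIs the medians were 1507 and 1518.5 against 1648.5 and 1646. Their own hashtag was counted 954 and 948 times in the median member and 1240 and 1165 times in the median other cell. The mitochondrial share differed little, with medians of 8.18% and 8.95% in members and 8.58% and 8.60% in other cells.

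Members carried the markers of neuroblast-like, adrenergic cells. All 10 adrenergic markers (among them PHOX2A, HAND2, GATA3, ISL1, TH, DBH, CHGA, CHGB and STMN2) had a UMI in the members of SplitA and 9 in those of SplitB, where TH, tyrosine hydroxylase, was at 0. TH was close to 0 everywhere, at 1 UMI in the members of SplitA and 1.41 and 1.49 CPM in other cells. The summed level of the 10 markers was 3559 CPM in members and 3126 CPM in other cells of SplitA, and 3489 and 2968 CPM in SplitB. STMN2 made up most of that difference, at 981 against 646 CPM and 970 against 612 CPM, while CHGB was lower in members. Of other cell types, 8 blood cell markers summed to 0 and 1.35 CPM in members, and 10 Schwann cell markers to 54.5 and 35.2 CPM against 40.0 and 50.1 CPM in other cells. The 20 mesenchymal or substrate-adherent cell markers summed to 1995 and 1957 CPM in members and 1745 and 1917 CPM in other cells, most of it LGALS1 (a galectin), and 12 of the 20 had a UMI in the members of SplitA and 9 in those of SplitB.

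Members and other cells of the same flask were then compared gene by gene, with UMIs summed over cells and expressed as CPM, and with the 9 genes and GAL left out. The sums held 550507 UMIs of members and 4271354 of other cells in SplitA, and 738372 and 6029132 in SplitB, so a level in members rests on fewer molecules than the level it is set against. Cells of a flask are not replicates, each flask gives 1 value, and the members were chosen from these same counts, so no test was made: a gene is called higher or lower where its log2 ratio of members over other cells was at least 0.5 in size in the same direction in both flasks. Among 1916 genes with a mean of at least 50 CPM, 22 were higher in members (1.15%) and 161 were lower (8.4%). The 95% Poisson intervals of the levels, which cover counting error only, lay apart in both flasks for 15 of the 22 and 125 of the 161. The median log2 ratio over all 1916 genes was -0.06, 1415 of them had the same sign in both flasks, and Pearson's r between the flasks was 0.75 across genes, which are not independent. The scaling bears on the split: trimmed-mean (TMM) factors raised the log2 ratios by 0.12 in SplitA and 0.15 in SplitB, and then 50 genes were higher and 107 lower, so that 31.8% of the called genes were higher in place of 12.02%.

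**Figure D1:**
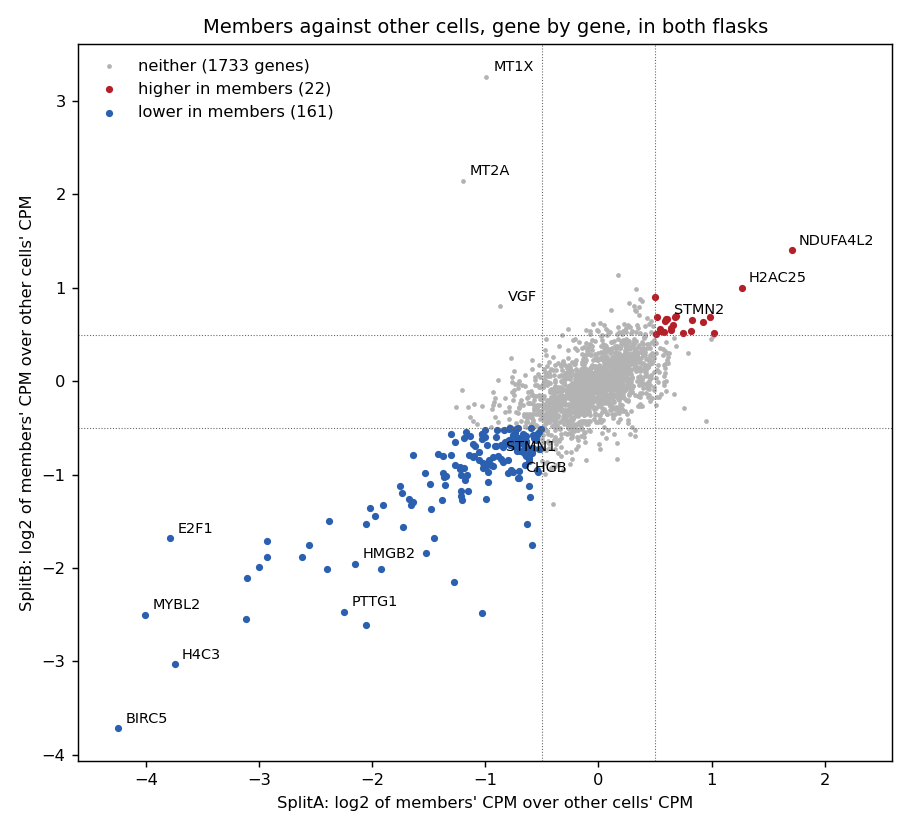
Each point is a gene with a mean of at least 50 CPM, with the log2 ratio of members over other cells in SplitA on the horizontal axis and in SplitB on the vertical axis; dotted lines mark -0.5 and 0.5. The 161 lower genes reach from the limit down to BIRC5 and H4C3, the 22 higher genes stay close to the limit apart from NDUFA4L2 and H2AC25, and MT1X, MT2A and VGF lie low in SplitA and high in SplitB.

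The lower genes were led by the machinery of division. BIRC5, the survivin subunit of the chromosomal passenger complex, stood at 10.9 CPM (upper 95% limit 23.7) in members and 207 CPM in other cells of SplitA, and at 14.9 CPM (upper limit 26.7) and 196 CPM in SplitB. Its UMIs came from 5 of 77 and 9 of 104 members, against 326 of 556 and 464 of 757 other cells. The histone gene H4C3 stood at 225 and 371 CPM in members and 3025 and 3033 CPM in other cells, log2 ratios of -3.75 and -3.03; reads of near-identical H4 genes can be shared, so the gene's own level is uncertain. MYBL2, the activator of late cycle genes named above, was at 7.27 and 21.7 CPM in members and 117 and 123 CPM in other cells. TMPO, a protein of the nuclear lamina, was at 10.9 and 14.9 CPM against 94.6 and 86.9 CPM. PTTG1, the securin that guards sister chromatids, was at 40.0 and 33.9 CPM against 190 and 187 CPM. All 5 were lower by more than 2 on the log2 scale in both flasks.

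Genes of chromatin and the centromere followed. The condensin subunit SMC4 stood at 45.4 and 39.3 CPM in members and 172 and 158 CPM in other cells, and the centromere proteins CENPN and CENPW had log2 ratios of -2.93 and -1.88, and of -2.56 and -1.75. HMGB2 and HMGB3, DNA-bending proteins of proliferating cells, had log2 ratios of -2.15 and -1.95, and of -2.06 and -2.61. The histone variant H2AX, which marks DNA breaks, was at 14.5 and 25.7 CPM against 117 and 102 CPM. The beta-tubulin TUBB4B, the mitochondrial nuclease ENDOG and the ubiquitin-conjugating enzyme UBE2T of DNA crosslink repair were also among the 15 lower genes with the largest size in the flask where it was smaller. E2F1, the founding E2F factor, ranked next, at 7.27 and 28.4 CPM in members and 100 and 91.1 CPM in other cells.

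**Figure D2:**
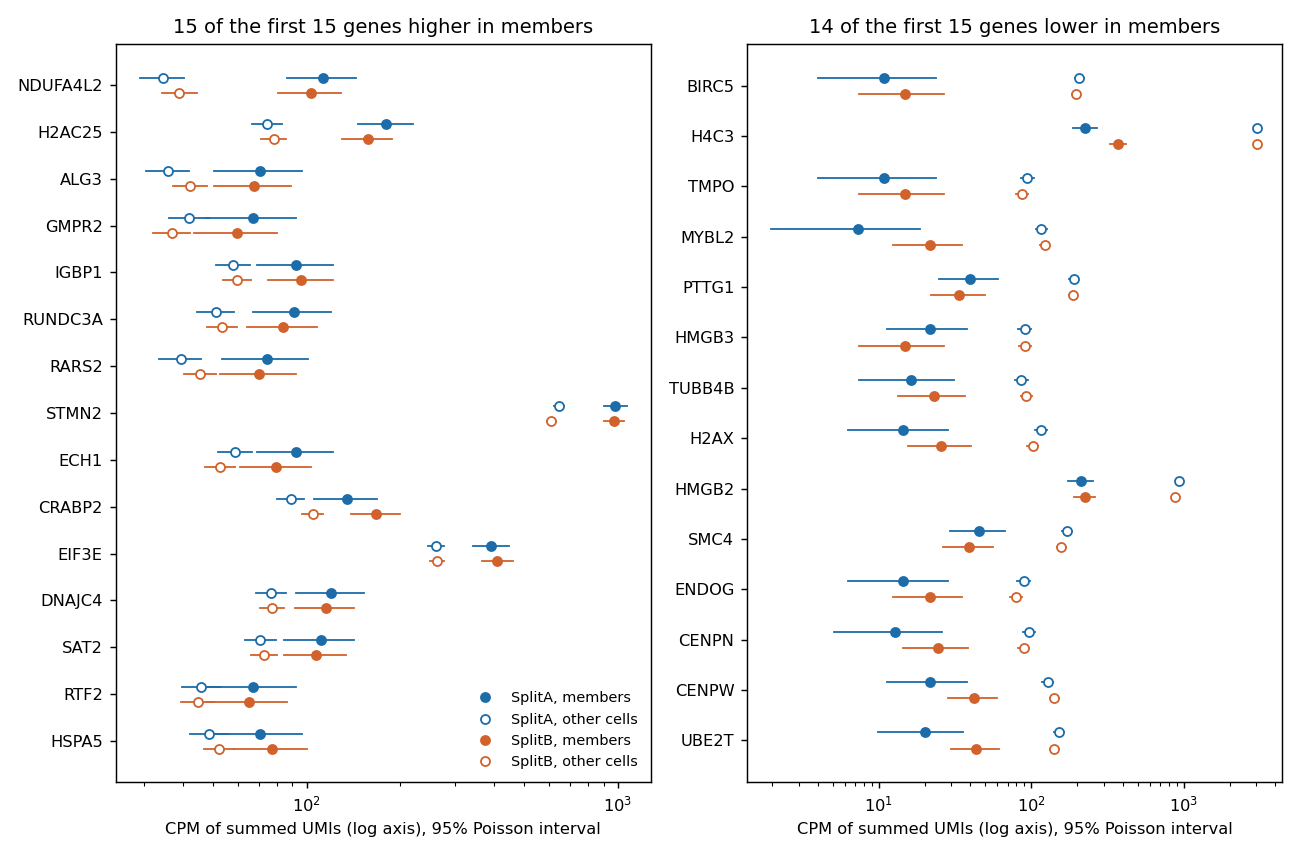
CPM of summed UMIs on a log axis with exact 95% Poisson intervals, for members and other cells of each flask, for 15 higher genes and 14 of the 15 lower genes with the largest size in the flask where it was smaller. BIRC5 lies at 10.9 and 14.9 CPM in members and 207 and 196 CPM in other cells, while most higher genes differ by less than 2-fold.

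Short stretches of promoter are shown because several of the lower genes, and several of the 9 defining genes, hold the motif that MuvB complexes read. The motif searched, the cell cycle genes homology region (CHR), was TTTGAA or TTCGAA on either strand, and it is in capitals below (as TTCAAA where it lies on the opposite strand). The windows run 5′ to 3′ on the strand of the gene, from RefSeq promoters of 250 bases before to 50 after each start in GRCh38.p14.
TOP2A (chr17:40418073-40418102, minus strand): cgagtggtgcctTTTGAAgcctctctagtc
MKI67 (chr10:128126453-128126482, minus strand): ttagcgccagaaTTTGAAtcttcgttttcg
CDK1 (chr10:60778158-60778187, plus strand): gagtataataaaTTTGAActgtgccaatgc
UBE2T (chr1:202342072-202342101, minus strand): cgcgcgctctcaTTTGAAtgcgtgagcgtt
HMGB3 (chrX:150983151-150983180, plus strand): cgggtcgttctgTTTGAAtgaatgatccca
SMC4 (chr3:160399563-160399592, plus strand): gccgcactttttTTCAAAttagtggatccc
H2AX (chr11:119095612-119095641, minus strand): gggcaaaaggttTTCAAAttcgaccaatca
H2AC25 (chr1:228458047-228458076, minus strand): gtacgttttgtaTTCAAAtgaaggctcagg
The last is the promoter of a gene that was higher in members, and it holds the same letters. Of the 161 lower genes, 130 had a promoter in the table, and 28 of these held the CHR letters (21.5%), against 151 of the 1573 matched promoters of all genes compared (9.60%) and 4539 of 27305 in the whole table (16.6%). Of 17 matched promoters of higher genes, 3 held them. The letters CCAAT, read by NF-Y, were in 66 of the 130 (50.8%), 616 of the 1573 (39.2%) and 9747 of the 27305 (35.7%), and in 10 of the 17. CHR and CCAAT letters stood together in 22 of the 130 promoters (16.9%), 78 of the 1573 (4.96%) and 1797 of the 27305 (6.58%), and in 3 of the 17. E2F letters (TTTGGCGC, TTTCCCGC or TTTCGCGC, either strand) were in 15 of the 130 (11.5%), 86 of the 1573 (5.47%) and 763 of the 27305 (2.79%), and in 1 of the 17. A match of letters is a description of the promoter and not a binding site, and the windows of CDK1 and H2AX also hold CCAAT letters.

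By gene list, the programmes of division were low as groups, and since the gate drew on S and G2 genes their direction is no independent observation. Over all genes compared, 8.4% were lower and 1.15% higher, and nothing is read from the lists' counts beside these shares. Of 10 genes compared from the G2M list, 8 were lower and none higher, with a median log2 ratio of -1.95, and the list summed to 1068 and 1228 CPM in members against 4109 and 3870 CPM in other cells. The S phase list had 3 genes compared, of which MCM7 (69.0 and 69.1 CPM against 114 and 111 CPM) and the histone chaperone NASP were lower, and summed to 438 and 542 CPM against 1520 and 1452 CPM. The MCM helicase and licensing list, most of it below 50 CPM, summed to 169 and 209 CPM against 645 and 612 CPM. Among 16 chromatin and HMG proteins 10 were lower and the median was -1.20, with HMGB1 at 507 and 596 CPM against 1295 and 1291 CPM and the variant histone H2AZ1 at 401 and 523 CPM against 1282 and 1255 CPM. PTMA, prothymosin alpha and the most abundant of them, had log2 ratios of -0.59 and -0.40 and was not called. Of 6 tubulins and stathmin, 4 were lower, among them TUBA1B at 254 and 379 CPM against 953 and 952 CPM and the microtubule destabilizer STMN1 at 581 and 611 CPM against 1074 and 1067 CPM. Of 2 replication-dependent histones compared, H4C3 was lower and the other had a mean log2 ratio above 0. The median of -1.69 of that list therefore rests on H4C3.

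Members were low in these transcripts rather than empty of them. The median member held 3 UMIs of the S phase list in each flask, against 11 and 10 in other cells, and 7 and 8 UMIs of the G2M list against 26 and 24. Every member of SplitB and 76 of 77 in SplitA had a UMI of the G2M list. H4C3 was found in 58 of 77 and 82 of 104 members with a median of 1 and 2 UMIs, and 3 members of SplitB, none of SplitA, had 10 or more, the highest 32. Free RNA in the droplets can give such counts in any cell, and its part was not tested.

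The genes higher in members were few and most were modest in size. Of the 22, 4 (NDUFA4L2, STMN2, TAGLN3 and HSPA5) were on a list and 18 on none, and 126 of the 161 lower genes were on none. NDUFA4L2 (chr12:57234903-57240715 in the GENCODE annotation of GRCh38), a mitochondrial protein known as a target of the hypoxia-inducible factors, was highest by ratio, at 113 CPM (86.3 to 144) in members and 34.4 CPM in other cells of SplitA and at 103 CPM (81.1 to 129) and 39.0 CPM in SplitB, log2 ratios of 1.71 and 1.40. It came from few cells. A UMI was found in 15 of 77 and 20 of 104 members, against 62 of 556 and 96 of 757 other cells, and the 4 members with the most UMIs held 48.4% and 44.7% of the members' total. H2AC25 (chr1:228434777-228457873), an H2A gene outside the major histone cluster, was more evenly spread, in 48 of 77 and 61 of 104 members against 215 of 556 and 303 of 757 other cells. Its level was 180 CPM (146 to 219) and 157 CPM (130 to 188) in members and 74.7 and 78.5 CPM in other cells, the opposite direction to H4C3. STMN2, the neuronal stathmin of growing axons and the most abundant of the 22, stood at 981 CPM (900 to 1067) and 970 CPM (900 to 1043) against 646 and 612 CPM. The median member held 7 STMN2 UMIs in SplitA and 6 in SplitB, and the median other cell 4 in each.

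Other higher genes had varied roles. EIF3E, a subunit of a translation initiation factor, was at 392 and 410 CPM against 261 and 262 CPM. CRABP2, which carries retinoic acid inside the cell, was at 134 and 167 CPM against 88.7 and 105 CPM. RUNDC3A, a protein of neurons and neuroendocrine cells, was at 90.8 and 84.0 CPM against 51.0 and 53.4 CPM, and the mannosyltransferase ALG3 of glycan assembly at 70.8 and 67.7 CPM against 35.8 and 42.1 CPM. GMPR2 of purine interconversion, IGBP1 of phosphatase regulation, the mitochondrial arginyl-tRNA synthetase RARS2, ECH1 of fatty acid breakdown, DNAJC4, SAT2 and RTF2 had log2 ratios between 0.54 and 0.92. HSPA5, the chaperone BiP of the endoplasmic reticulum, was at 70.8 and 77.2 CPM against 48.7 and 52.4 CPM, but its log2 ratio of 0.56 in SplitB was 0.07 without 4 members described below. The remaining 7 were SHC1, FKBP1B, GSTK1, TAGLN3, ZNF581, ZNF580 and NANOS1, and ZNF580 and ZNF581 overlap on chromosome 19, so that their reads may not be separable. Just outside the limit lay MXD4, a MYC antagonist of the MAX network, with log2 ratios of 1.02 and 0.48, EIF3I with 0.46 and 0.64 and LYPLA2 with 0.48 and 0.59. Of the 22, 5 (NDUFA4L2, H2AC25, STMN2, EIF3E and RUNDC3A) were called under all 13 alternative choices of cells, counting and scaling (2 of them added after seeing the data), as were 77 of the 161 lower genes. Outside these 13, the comparison with cells that had 1 UMI of the 9 genes kept 0 of the 22 and 3 of the 161. Restriction to cells of 5000 to 8000 UMIs alone kept 11 of the 22 and 112 of the 161.

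Regulators that hold the cycle back were too few among the genes compared for a count of calls to be read, since 1.15% of all genes were called higher. CDKN1C, the p57 inhibitor, was at 89.0 and 125 CPM in members and 73.7 and 69.7 CPM in other cells, log2 ratios of 0.27 and 0.84, and was not called, but was against other cells under 20 GAL UMIs per 10000. CDKN2C, the p18 inhibitor, was lower, at 43.6 and 56.9 CPM against 96.0 and 85.4 CPM. CDKN1A (p21) and CDKN1B (p27) did not reach 50 CPM and are given for their role: CDKN1A stood at 41.8 and 17.6 CPM against 24.6 and 31.7 CPM, with 12 of its 23 UMIs in 1 member of SplitA, and CDKN1B at 14.5 and 17.6 CPM against 35.4 and 28.7 CPM. None of 5 cyclins and kinases was called, CCND1 (cyclin D1) lying at 480 and 534 CPM against 688 and 608 CPM, CDK4 at 164 and 126 CPM against 190 and 174 CPM, and CCNI and CDK6 with log2 ratios of 0.05 and 0.07, and of -0.26 and 0.10. Of 9 antiproliferative and quiescence genes none was called, 6 had a mean log2 ratio above 0, and their median was 0.22, 0.06 in SplitA and 0.39 in SplitB, against -0.06 for all genes. BTG1 and YPEL3 had ratios of 0.06 and 0.39, and of 0.07 and 0.26, and TSC22D1 of 0.37 and 0.88. Neither p53 target compared was called.

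**Figure D3:**
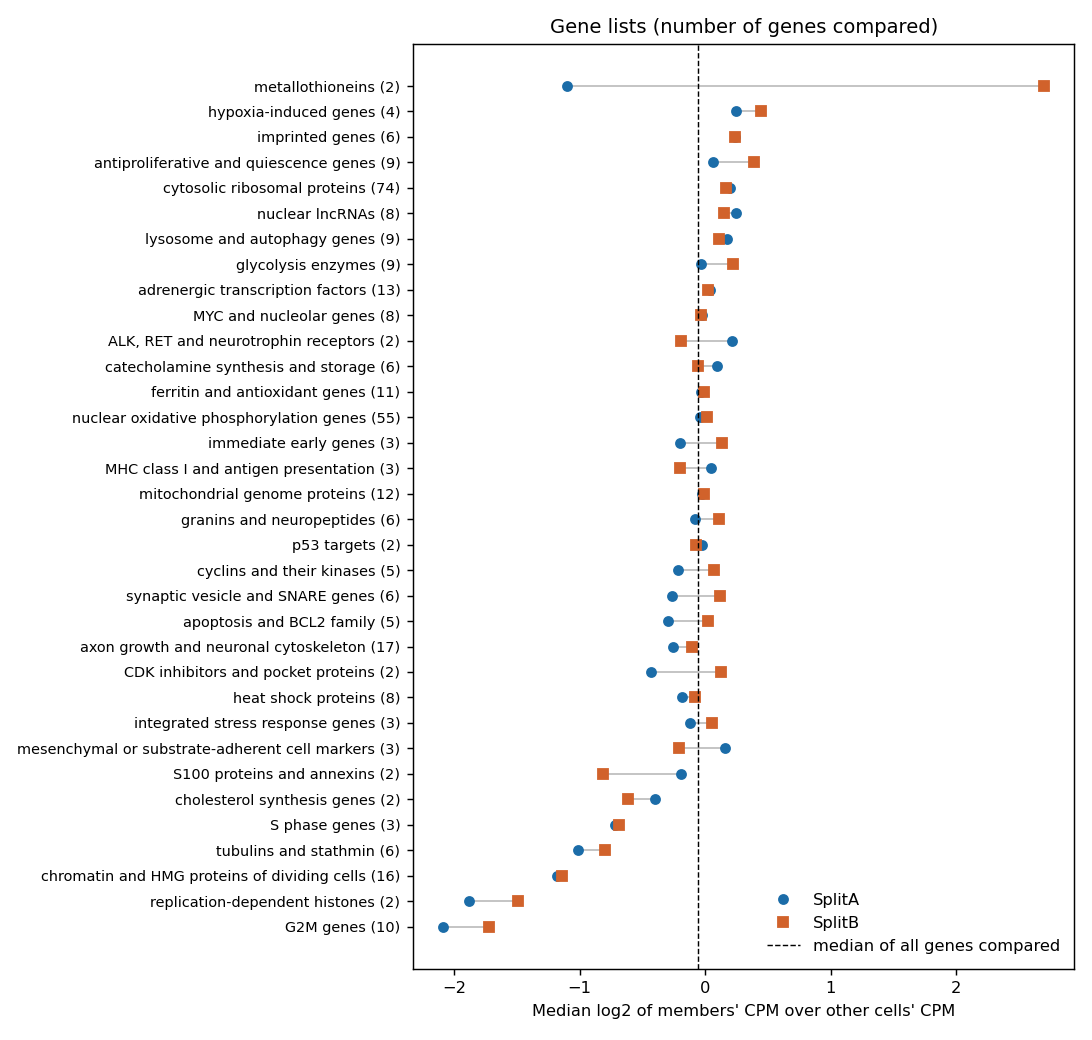
Median log2 ratio of members over other cells for each gene list with at least 2 genes of 50 CPM or more, with the number of genes in parentheses and the flasks as separate points; the dashed line is the median of all genes compared, -0.06. Lists of division lie far to the left, that of replication-dependent histones through H4C3 alone. Ribosomal proteins lie slightly to the right at 0.18, and metallothioneins apart in the flasks at -1.10 and 2.704.

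Of the genes compared from the adrenergic, catecholamine, axon, synaptic and ALK and RET lists, 2 were higher and 4 lower. Over all genes compared, 1.15% were higher and 8.4% lower. In the granin list, taken up below, CHGB alone of 6 genes compared was lower. Of 13 adrenergic transcription factors only SOX11, a factor of immature neuroblasts, was called, at 67.2 and 58.2 CPM in members and 117 and 115 CPM in other cells. PHOX2A, which specifies sympathetic neurons, was at 741 and 699 CPM against 634 and 631 CPM and GATA3 at 265 and 270 CPM against 253 and 232 CPM, and the list's median was 0.05. DBH, which converts dopamine to noradrenaline, was at 387 and 320 CPM against 327 and 316 CPM, and none of 6 catecholamine genes was called. In the axon list of 17 genes STMN2 and TAGLN3 were higher, DPYSL2, DPYSL5 and the adhesion molecule NCAM1 were lower, 14 had a mean log2 ratio below 0 and 3 above it, and the median was -0.14 (-0.26 in SplitA, -0.11 in SplitB). Of 6 synaptic genes and of 2 receptors and ligands of the ALK and RET list, none was called.

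The granins depended on the comparison cells. CHGB, chromogranin B of secretory granules, was at 125 and 92.1 CPM in members and 206 and 188 CPM in other cells, log2 ratios of -0.72 and -1.03. Because the gate removed cells rich in GAL from the members but not from the other cells, the comparison was repeated with other cells under 20 GAL UMIs per 10000, where CHGB stood at 102 and 72.0 CPM and its ratios became 0.29 and 0.36. S100A11, a calcium-binding protein, likewise went from -0.58 and -1.75 to 0.62 and -0.44. Against those cells 35 genes were higher, 20 of them among the 22, and 178 lower, and the 15 added included the G protein subunit gene GNAS (1.02 and 0.74), CHGA (0.58 and 1.03), MXD4 (1.198 and 0.66), CDKN1C (0.59 and 1.12) and the imprinted Notch ligand homologue DLK1 (0.69 and 0.73). The cells that lacked the 9 genes but had 20 or more GAL UMIs per 10000 held DLK1 at 8953 and 8723 CPM, against 2881 and 3077 CPM in members, and CHGB at 960 and 681 CPM. NDUFA4L2 was higher in them than in members, at 184 CPM (128 to 255) and 169 CPM (117 to 236) against 113 and 103 CPM, with overlapping intervals, and STMN2 was at 928 and 865 CPM against 981 and 970 CPM.

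Ribosomal protein genes were a little higher across the board without reaching the limit. Of 74, none was called, 72 had a mean log2 ratio above 0, and the median was 0.18 against -0.06 for all genes. Together they held 408614 and 401095 CPM in members and 360720 and 362238 CPM in other cells. The nuclear RNA MALAT1 was at 17121 and 15801 CPM against 13545 and 13009 CPM. None of the energy genes was called. The median was -0.04 for 12 genes of the mitochondrial genome and -0.03 for 55 nuclear oxidative phosphorylation genes, both smaller than the shift that TMM scaling gave and above 0 under it. For 9 glycolysis enzymes it was 0.14 (-0.03 in SplitA, 0.23 in SplitB), 6 of the 9 were above 0, and the median was 0.0072, with 5 above 0, without the 4 metallothionein-rich members of SplitB described below. Their sum was 4608 and 5111 CPM in members and 4172 and 4370 CPM in other cells. All 4 hypoxia genes compared had a mean log2 ratio above 0, and their median was 0.33, against -0.06 for all genes, the flasks giving 0.24 and 0.45. NDUFA4L2 alone of them was called, BNIP3 lying at 140 and 165 CPM against 136 and 125 CPM. The counts that follow are of short lists, and nothing is read from them. Over all genes compared, 8.4% were lower and 1.15% higher. Of 8 MYC and nucleolar genes, ODC1 of polyamine synthesis and NOP56 of ribosome assembly were lower. HSP90AA1 was lower among 8 heat shock genes (383 and 393 CPM against 636 and 641 CPM), the AP-1 factor JUND among 3 immediate early genes, the survival protein MCL1 among 5 apoptosis genes, and PEG10 among 6 imprinted genes (47.2 and 81.3 CPM against 123 and 141 CPM). The other 5 imprinted genes were above 0, the list's median was 0.23, and its sum, led by DLK1, was 3586 and 3886 CPM in members and 3192 and 3275 CPM in other cells. HSPA5 was the gene called among 3 of the integrated stress response, and none was called of 2 cholesterol, 9 lysosome and autophagy, 11 ferritin and antioxidant, 3 antigen presentation, 3 mesenchymal and 8 nuclear lncRNA genes.

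The level of these genes varied with the number of gate UMIs rather than at 0 alone. Cells with GAL under 20 per 10000 were grouped by their UMIs of the 9 genes, the members being the group at 0. NDUFA4L2 went across the groups of 0, 1, 2 to 4, 5 to 9, 10 to 19 and 20 or more UMIs from 113 to 89.7, 45.9, 11.7, 13.4 and 6.99 CPM in SplitA, and from 103 to 97.8, 36.8, 13.01, 11.4 and 11.9 CPM in SplitB. STMN2 was at 981, 1007, 877, 602, 478 and 477 CPM in SplitA and at 970, 755, 803, 600 and 459 CPM and then 515 CPM in SplitB, lower at 20 or more than at 0 but not at every step between. BIRC5 went the other way, from 10.9 to 429 CPM and from 14.9 to 482 CPM. H4C3 had its peak in the middle, at 5656 and 6178 CPM in cells with 10 to 19 UMIs, and was at 2484 and 3400 CPM in those with 20 or more. E2F1 likewise was highest between, at 168 CPM with 5 to 9 UMIs in SplitA and 131 CPM with 10 to 19 in SplitB. BIRC5, H4C3 and E2F1 are cycle genes like the 9 that set the groups, so their course is no independent observation. The summed ribosomal protein genes went from 408614 to 340438 CPM and from 401095 to 335572 CPM. Median depth moved along the same groups, from 6576 to 8812 UMIs in SplitA and from 6876.5 to 8531 UMIs in SplitB, and its part in these gradients was not tested.

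The nearest cells in that order were those with 1 UMI. Against cells with exactly 1 UMI of the 9 genes, and with the same limit on GAL, no gene was higher by the same rule and 5 were lower. The S phase list stood at 438 CPM (384 to 497) in members and 676 CPM (601 to 758) in those cells of SplitA, and at 542 CPM (490 to 598) and 600 CPM (543 to 661) in SplitB, and the alpha-tubulin TUBA1B at 254 and 529 CPM in SplitA and 379 and 443 CPM in SplitB. The intervals of the S phase list lay apart in SplitA and overlapped in SplitB. The imprinted list, led by DLK1, summed to 3586 and 3886 CPM in members and to 3900 and 4038 CPM in those cells, against 1943 and 2095 CPM in cells with 20 or more.

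**Figure D4:**
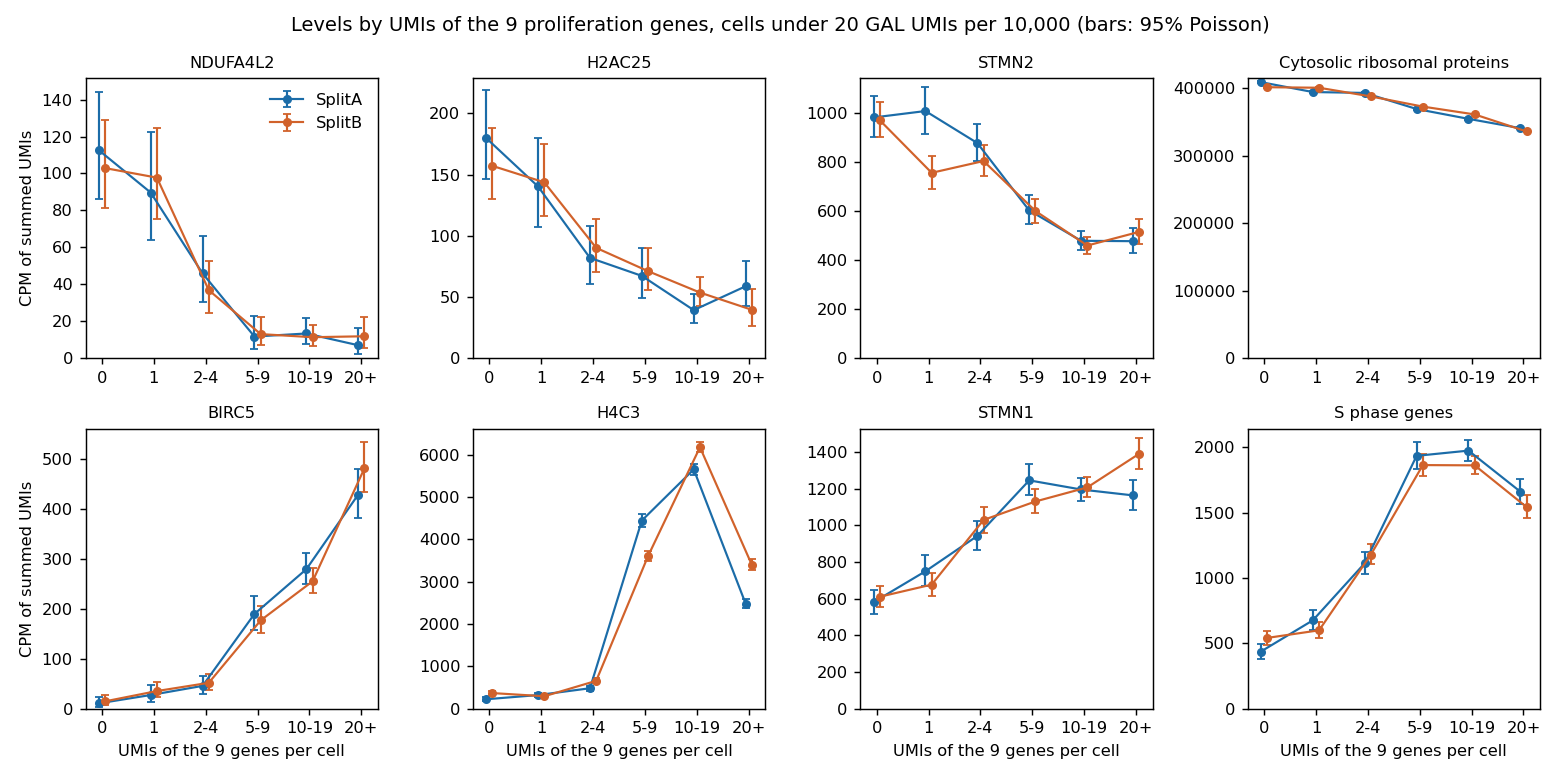
CPM of summed UMIs in cells under 20 GAL UMIs per 10000, grouped by their UMIs of the 9 defining genes (horizontal axis), with 95% Poisson intervals and a line for each flask; the group at 0 is the members. NDUFA4L2 goes from 113 and 103 CPM at 0 to 6.99 and 11.9 CPM at 20 or more, while H4C3 is highest at 10 to 19.

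By the ratio of variance to mean, members differed among themselves most in a few genes, most of them abundant. At the same relative spread this ratio is larger for a gene of higher level, so the order is not one of relative spread. Of 1845 genes considered after thinning to 5000 UMIs, the median ratio of variance to mean was 1.07 in SplitA and 1.10 in SplitB, near the value of 1 that counting alone gives. By the smaller of the flasks' ratios DLK1 came first, with 11.9 and 14.3 and with 0 to 64 thinned UMIs per member in SplitA (median 8) and 0 to 62 in SplitB (median 10). GNAS had the higher ratio in SplitA (18.5), with 0 to 84 thinned UMIs (median 7), and 0 to 65 (median 8.5) in SplitB. MALAT1 ran from 30 to 185 and from 0 to 197, the 0 coming only from the member with 32 metallothionein UMIs described below. The mitochondrial MT-CO2, MT-CO3 and MT-CYB, the actin-binding TMSB10, LGALS1 and the neuropeptide NPY completed the first 10 with CARTPT, the precursor of another neuropeptide, which was found in 5 and 4 members after thinning and owed its place, and its ratio of 26.7 in SplitB, to cells with up to 11 and 32 UMIs. In other cells the ratios of DLK1 were 17.6 and 18.1 and those of GNAS 12.2 and 12.1.

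Members with a NDUFA4L2 UMI (15 in SplitA, 20 in SplitB) were set beside the members without (62 and 84), a split chosen after the values were seen. DLK1 stood at 4184 and 5257 CPM in the former and 2541 and 2557 CPM in the latter. The glycolysis enzymes TPI1 and GAPDH were at 925 and 1445 CPM against 663 and 679 CPM, and at 3083 and 3587 CPM against 2282 and 2357 CPM, while the enzyme ENO1 was at 96.9 and 134 CPM against 105 and 134 CPM. Of other hypoxia targets, BNIP3 was at 185 and 289 CPM against 128 and 136 CPM. VEGFA was at 17.6 and 42.3 CPM against 18.3 and 21.8 CPM and P4HA1 at 44.05 and 0 CPM against 13.7 and 15.1 CPM, on at most 6 UMIs each in the former. The enzyme PGK1 was at 106 and 106 CPM against 64.0 and 62.0 CPM. LDHA, lactate dehydrogenase, was at 203 CPM (128 to 304) and 677 CPM (548 to 826) against 176 and 181 CPM. Without the 4 members of SplitB described next, LDHA was at 294 CPM (205 to 409) against 179 CPM (147 to 217) there, so its intervals overlapped in both flasks. In SplitB without these 4, TPI1 was at 975 against 680 CPM and BNIP3 at 193 against 135 CPM. PGK1 was then at 84.1 against 62.6 CPM and ENO1 at 84.1 against 132 CPM. The intervals of BNIP3 overlapped in SplitA, and in SplitB once these 4 were left out. Those of PGK1 and ENO1 overlapped in both flasks, while those of TPI1 and GAPDH lay apart in both, also without these 4. STMN2 was at 890 and 895 CPM against 1004 and 987 CPM. Other cells with a NDUFA4L2 UMI also held DLK1 at a high level, 4473 and 5057 CPM.

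Metallothioneins, which bind zinc and copper, were concentrated in a handful of members of SplitB. There 4 members with 323, 221, 64 and 32 UMIs held 640 of the 746 metallothionein UMIs of that flask's 104 members (85.8%), while the next held 17 and the highest member of SplitA 4. Of the other cells of SplitB, 8 of 757 held 10 or more, the highest 27, close to the fourth member, and that cell had a mitochondrial share of 10.2%. MT1X accordingly stood at 517 CPM in the members of SplitB against 53.9 CPM in other cells, and at 27.3 against 54.3 CPM in SplitA. The mitochondrial share of the 4 was 2.52%, 2.76%, 6.59% and 1.06%, with a median of 2.64% against 9.03% for the other 100 members of the flask. In SplitB, 4 of 104 members (3.85%) and 3 of 757 other cells (0.396%) were under 3% mitochondrial, and in SplitA none of 77 and none of 556. The members under 3% were not the same 4 cells, since the metallothionein-rich member at 6.59% was not among them. The second of the 4 metallothionein-rich members also held 203 UMIs of VGF and 58 of CARTPT, 2 secreted neuroendocrine products. The first held UMIs of the early response genes JUNB, EGR1 and IER2. The fourth held 10 UMIs of HSPA5 and 23 of LDHA. The summed adrenergic markers of the 4 had a median of 19.2 UMIs per 10000 against 34.3 in the other members of SplitB, with the lowest at 3.02. The other cells of SplitB had a median of 26.2, and their lowest value was 2.23. Without these 4 the counts were 20 higher, 19 of them among the 22, and 161 lower, 154 of them among the 161.

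**Figure D5:**
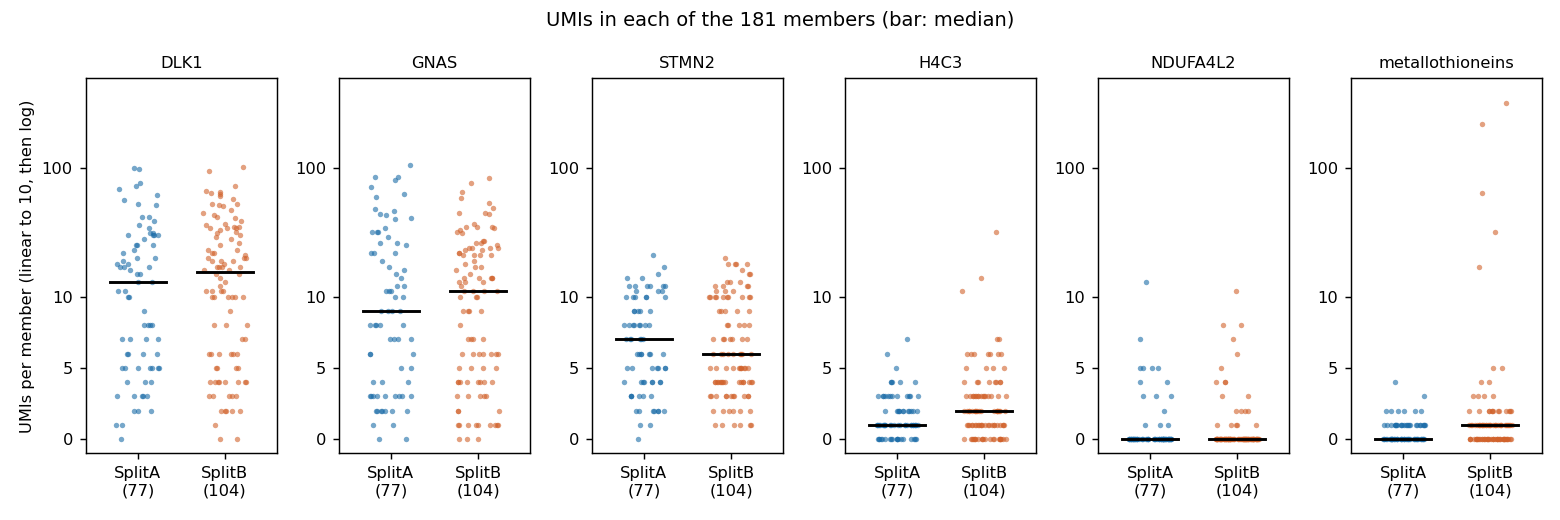
UMIs per member for selected genes and for the summed metallothioneins, on an axis that is linear up to 10 and logarithmic above, with each point a member (77 in SplitA, 104 in SplitB). The metallothionein panel shows 4 members of SplitB at 323, 221, 64 and 32 UMIs, while no member of SplitA is above 4.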

How the data were processed

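The deposited table holds raw UMI counts per gene and cell, with the counts of both hashtags. Per the submitters' processing notes the authors mapped reads with STAR 2.7 and counted with Cell Ranger 4.0.0; the annotation release is not given in the sources used here. The table has 2879 cells and 33538 genes, with 505 to 27205 gene UMIs per cell. Cells were assigned to flasks by their hashtags, and no doublet caller was run, so multiplets of cells of the same flask remain. Both flasks share 1 library, so no barcode is shared between libraries.

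UMIs were summed over members and over other cells of each flask and scaled to CPM without the 9 defining genes and GAL. No p-value is given: with 1 value per flask and members chosen from the same counts, genes were called by size. Intervals are exact (Poisson for CPM, Clopper-Pearson for shares) at 95% and cover counting error only. The members and the gene lists were chosen with earlier results of these data known, so no list gives independent support. The text names the defining genes, the 15 higher and 15 lower genes with the largest size in the flask where it was smaller, called or most abundant genes of the 37 lists, and the 10 genes that varied most. Of the 800 distinct genes on the lists, 10 were not analysed here, those under 50 CPM were not compared, and some genes that these rules select are not reported here. Thinning drew 5000 UMIs per cell once. Of the alternatives, 60 were planned and 10 were added after seeing the data. TMM factors came from edgeR 4.0.16 in R 4.3.3, and the rest was computed with scipy 1.17.1, pandas 2.3.3 and numpy 2.4.6 (Python 3.11.15).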

Additional observations from a re-analysis of the deposited data

Results flagged for a closer look

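Of the 1916 genes compared, 3 passed the limit in opposite directions in the flasks. MT1X had a log2 ratio of members over other cells of -0.995 in SplitA and 3.263 in SplitB, MT2A of -1.203 and 2.145, and VGF of -0.868 and 0.801. The difference between the flasks was not tested. Without the 4 metallothionein-rich members of SplitB, an alternative added after seeing the data, the values in SplitB were 0.36 for MT1X, -1.36 for MT2A and -0.68 for VGF.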

How the results depend on the processing

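The share of members, 12.1% over both flasks, was 12.3% with a hashtag limit of 100, 13.1% from 4000 UMIs, 9.78% from 7000 UMIs, 15.8% with no GAL limit, 22.6% with at most 1 UMI of the 9 genes and 15.7% in cells thinned first, and 12.1 to 12.2% in single flasks. The 22 higher and 161 lower genes became 35 higher against other cells under 20 GAL UMIs per 10000, 59 and 263 against other cells with at least 5 UMIs of the 9 genes, 50 and 107 with TMM factors, 59 and 484 at a minimum of 20 CPM, 7 and 62 at 100 CPM, and 561 and 1674 with a UMI in each sum as the only minimum. They became 90 and 312 at a log2 limit of 0.3, 2 and 44 at a limit of 1, 50 higher with no GAL limit, and 0 and 5 against cells with 1 UMI of the 9 genes. Left to 1 flask, 62 to 72 were higher and 243 to 280 lower. The cause was not tested, apart from the limits and single flasks, where fewer conditions or genes entered by construction. Against other cells under 20 GAL UMIs per 10000 the mean log2 ratio of CHGB turned to 0.32 and that of S100A11 to 0.086; of 1464 values of named genes under alternatives, 1462 kept their direction. List medians kept theirs in 229 of 272. Each ratio was taken within a flask, and no test over the 2 pairs of values was made. Levels near 50 CPM rest on about 25 to 40 UMIs in the members of a flask, and 1 line, 1 library and 2 flasks limit what can be read from them.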
